A study of Mus musculus with 6 samples.

Results

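The transcripts of 10 circadian clock genes were followed in RNA-seq of C2C12 cells, a line of mouse myoblasts that divide as single cells and can fuse into muscle fibers. The members were chosen by gene symbol from the deposited table, which lists Arntl under its current symbol Bmal1. All 10 were found among its 22375 rows, and all 10 were among the 11593 genes that passed a filter at a mean of 0.5 FPKM over the 6 libraries. They are the period genes Per1, Per2 and Per3, the cryptochrome genes Cry1 and Cry2, the activator genes Clock and Bmal1, the REV-ERB genes Nr1d1 and Nr1d2, and the output factor gene Dbp. The study held 3 libraries of the CON group, unstretched cells labelled as control, and 3 libraries of the 4H group, cells under cyclic loading at 15% elongation for 4 h. Both groups were unmodified C2C12 cells of 1 commercial stock, grown with fetal bovine serum and, per the methods for the stretch experiment, seeded near confluence on elastic plates coated with poly-lysine. The time of day of collection and the time since the last change of serum are not given in the sources at hand, and each group was collected at 1 time point. A change in the level of a rhythmic transcript and a shift in the phase of its rhythm cannot be told apart in such a design.

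The clock is a feedback loop of transcription that most mammalian cells carry, muscle cells included. CLOCK and BMAL1 bind E-box elements as a pair and activate the period, cryptochrome, REV-ERB and Dbp genes. PER and CRY proteins accumulate and repress that pair, while the REV-ERB proteins repress Bmal1 through elements that the ROR receptors also bind. DBP and its relatives TEF and HLF activate genes with D-box elements, and NFIL3 represses them. In cultured cells the loop is reset by serum, glucocorticoids and cAMP signaling, and Per1 is one of the genes that answer such signals quickly. In skeletal muscle Myod1 and Pdk4 are among the genes linked to the clock.

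The values are FPKM, in which fragments are scaled by transcript length and by the mapped fragments of the library, so levels may be compared between genes per unit of length. FPKM summed to between 395790 and 397260 in the CON libraries and to between 385146 and 387516 in the 4H libraries. The number of fragments is not kept in FPKM. The step sizes of genes under 0.1 FPKM put every pair of libraries within 1.55% of the same depth, with as few as 12 genes behind an estimate. The search took in only natural log ratios under 0.1 in size, so it could not have found a larger difference in depth. Log2 values of libraries correlated across genes at 0.992 to 0.993 within a group, against 0.967 to 0.970 for libraries of different groups (Pearson's r, genes not being replicates), and no library stood apart. Fold changes were estimated with limma on log2(FPKM + 0.5), a scale that understates the change of low genes, and p-values were adjusted over all genes tested by the Benjamini-Hochberg method. Differential expression, as the study set it, asked for a log2 fold change of 1 or more in either direction together with an adjusted p not above 0.05. The myoblast identity was checked with a list of markers, of which Myod1, Myf5, Des, Cdh15, Itga7 and Msc were tested. The list summed to between 155 and 159 FPKM in the CON group and to between 229 and 241 FPKM in the 4H group, and Pax7 was at most 0.605 FPKM. The markers did not all move with that sum, since Myf5 fell from 15.8 ± 0.851 to 9.82 ± 1.13 FPKM (limma, adjusted p = 0.000347). Markers of differentiated muscle summed to at most 1.11 FPKM without stretch and 1.81 FPKM after it. The epithelial list summed to at most 0.222 FPKM in any library, with Epcam at 0, and the endothelial list to at most 0.261 FPKM. Of the leukocyte markers, Ptprc was listed at 0 in all 6 libraries and Cd3e in all but 1, whereas Cd68, a lysosomal protein gene, rose from 7.57 ± 0.892 to 16.4 ± 1.29 FPKM (adjusted p = 4.11e-05 from limma). The part of these differences in the clock results was not tested. In bulk RNA, fewer cells in a given state and less RNA per cell cannot be told apart.

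After 4 h of stretch the period, REV-ERB and Dbp genes of the clock rose, and its activators and cryptochromes did not pass the test. Nr1d1 rose to 2.22 times its CON mean and Dbp to 1.91 times. Per1, Per2 and Per3 rose by smaller amounts, to between 1.30 and 1.49 times, and Nr1d2 rose to 1.14 times. Clock, Bmal1, Cry1 and Cry2 lay between 0.923 and 0.995 times the CON mean. By the adjusted p alone, 6 of the 10 genes were higher in the 4H group and 0 lower, and 4 did not pass. Over all genes tested 46.7% passed this rule, 22.6% higher and 24.1% lower. With the fold threshold as well, 1 of 10 was differentially expressed, Nr1d1, where 3.88% of all genes tested were, 2.61% higher and 1.28% lower. The groups did not overlap in 6 of the 10 genes, the share of all genes tested being 56.7%. For each of these 6 an exact permutation test gave p = 0.1, the lowest that 3 libraries against 3 allow. The share of members without overlap was thus near the background, and the share that was higher stood above it, though no test of the list as a whole was made. The median log2 fold change of the 10 genes was 0.27, beside -0.01 for all genes tested, and the median absolute change was 0.27 beside 0.19.

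**Figure D1:**
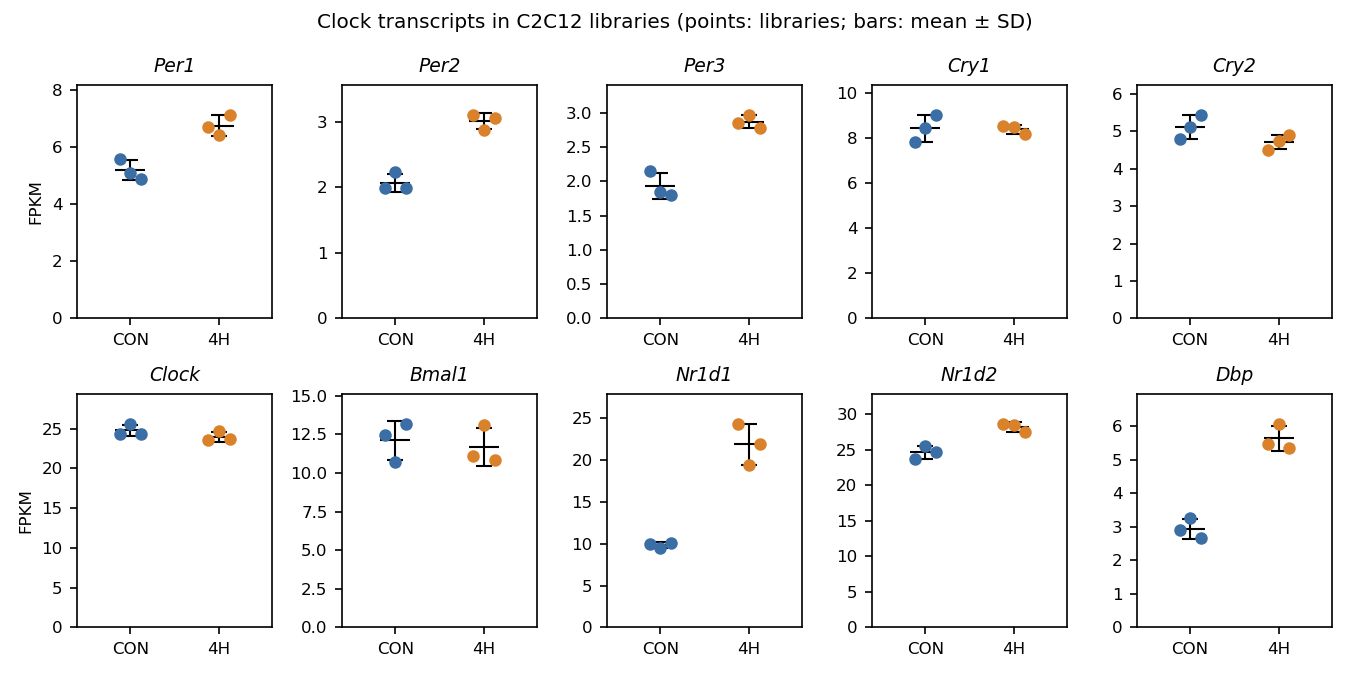
FPKM of the 10 clock genes in each library (points) by group, with the mean and SD (bars) and axes starting at 0. The 4H points of Per1, Per2, Per3, Nr1d1, Nr1d2 and Dbp all lie above the CON points, by 2.22 times in the means of Nr1d1, and those of Cry1, Cry2, Clock and Bmal1 overlap.

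Nr1d1 (ENSMUSG00000020889) encodes REV-ERBα, a heme-binding nuclear receptor that represses Bmal1 and many metabolic genes. It was at 10.0, 9.49 and 10.1 FPKM without stretch and 24.3, 19.5 and 21.9 FPKM after it. The lowest 4H library was well above the highest CON library. The log2 fold change was 1.11 (standard error 0.08, 95% interval 0.92 to 1.29, limma, adjusted p = 1.38e-05), so the interval reached below the fold threshold. Of all genes tested, 96.7% had a smaller absolute change. Its spread was uneven between groups, with a coefficient of variation of 3.23% in the CON group and 11.1% in the 4H group. Nr1d1 lies on the minus strand of chromosome 11, at 98767932 to 98775333 of GRCm38, and 8.55% of its exon bases overlap exons of Thra, a thyroid hormone receptor gene on the other strand. Thra was at 9.96 ± 1.04 FPKM without stretch and 8.42 ± 0.518 FPKM after it (SD, n = 3 each), with an adjusted p of 0.0552 in limma (0.0414 without CON replicate 3) and the opposite sign to Nr1d1. The libraries kept strand, but whether the counting used it is not stated, so reads of the shared bases may have gone to either gene.

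Nr1d2, the gene of the paralog REV-ERBβ, was at 23.7, 25.6 and 24.7 FPKM without stretch and 28.6, 28.5 and 27.5 FPKM after it. The groups did not overlap, but the gap between them was small, at 0.19 in log2 (standard error 0.04, 95% interval 0.09 to 0.29, adjusted p = 0.00741 from limma). Of the genes tested, 50.7% had a smaller absolute change, so Nr1d2 was near the middle of the table. The ratio of Nr1d1 to Nr1d2 within a library, which no scaling of the library can alter, was 0.401 ± 0.0268 in the CON group and 0.776 ± 0.0854 in the 4H group (SD, n = 3 each). The 2 paralogs were therefore at more unequal levels in the unstretched cells. The log2 ratio was higher by 0.95 in the 4H group (standard error 0.11), with no overlap between groups. All ratios given here were chosen after the values of their members were seen, so they are descriptions without a test.

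Dbp (ENSMUSG00000059824) encodes a PAR-domain transcription factor that activates D-box genes and serves as a direct readout of CLOCK and BMAL1. It was at 2.92, 3.26 and 2.67 FPKM without stretch and 5.48, 6.06 and 5.36 FPKM after it. Every 4H library lay above every CON library. The log2 fold change of 0.83 (standard error 0.09, 95% interval 0.62 to 1.05, adjusted p = 0.000167 from limma) stayed below the fold threshold. Of all genes tested, 94.1% had a smaller absolute change. Exons of Sphk2, a sphingosine kinase gene on the other strand, cover 18.0% of the exon bases of Dbp, and Sphk2 was at 6.73 ± 0.399 FPKM without stretch and 5.90 ± 0.639 FPKM after it (adjusted p = 0.139 from limma).

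The period genes encode the PER proteins, which enter the nucleus with the cryptochromes and shut down CLOCK and BMAL1. Per1 was at 5.58, 5.09 and 4.89 FPKM without stretch and 6.71, 6.41 and 7.12 FPKM after it, or 0.35 higher in log2 (limma, standard error 0.08, adjusted p = 0.00580). Per2 was at 1.99, 2.23 and 1.98 FPKM without stretch and 3.10, 2.87 and 3.06 FPKM after it, or 0.45 higher in log2 (standard error 0.09, adjusted p = 0.00393). Per3 was at 2.15, 1.84 and 1.80 FPKM without stretch and 2.86, 2.97 and 2.78 FPKM after it, or 0.47 higher in log2 (standard error 0.10, adjusted p = 0.00427). In each of the 3 genes all 4H libraries were above all CON libraries. Their 95% intervals, 0.18 to 0.52, 0.24 to 0.66 and 0.25 to 0.69, overlapped, so an order among the period genes was not shown. Per1, known as the quick responder of the family, had the lowest point estimate at this time.

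The cryptochrome genes encode the strong repressors of the loop. Cry1 was at 7.84, 8.46 and 9.04 FPKM without stretch and 8.53, 8.50 and 8.18 FPKM after it. Its 4H libraries fell inside the CON range, and the log2 difference of -0.0048 had a 95% interval of -0.16 to 0.15 (adjusted p = 0.961 from limma). Cry2 was at 4.79, 5.11 and 5.43 FPKM without stretch and 4.51, 4.73 and 4.90 FPKM after it. Its groups overlapped too, with a log2 difference of -0.10 and a 95% interval of -0.28 to 0.07 (adjusted p = 0.294). The ratio of Per2 to Cry1 within a library, 2 genes whose proteins act in the same repressor complex, went from 0.246 ± 0.0232 in the CON group to 0.358 ± 0.0187 in the 4H group (SD, n = 3 each, no overlap between groups).

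The activators overlapped between groups, and Clock was bounded more tightly than Bmal1. Clock, which encodes a bHLH-PAS factor with acetyltransferase activity, was at 24.4, 25.6 and 24.4 FPKM without stretch and 23.5, 24.7 and 23.6 FPKM after it. Its log2 difference was -0.05 with a 95% interval of -0.14 to 0.05 (adjusted p = 0.384 from limma). Bmal1 (ENSMUSG00000055116), the gene of the obligate partner of CLOCK, was at 12.5, 10.7 and 13.2 FPKM without stretch and 11.1, 13.1 and 10.8 FPKM after it. Its libraries spread by 10.4% of the mean in the CON group and 10.6% in the 4H group, and its log2 difference of -0.05 had a 95% interval of -0.27 to 0.17 (adjusted p = 0.679). The ratio of Clock to Bmal1 within a library was 2.06 ± 0.283 in the CON group and 2.06 ± 0.157 in the 4H group (SD, n = 3 each). The ratio of Nr1d1 to its target Bmal1 was 0.818 ± 0.0614 in the CON group and 1.90 ± 0.367 in the 4H group, with no overlap.

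**Figure D2:**
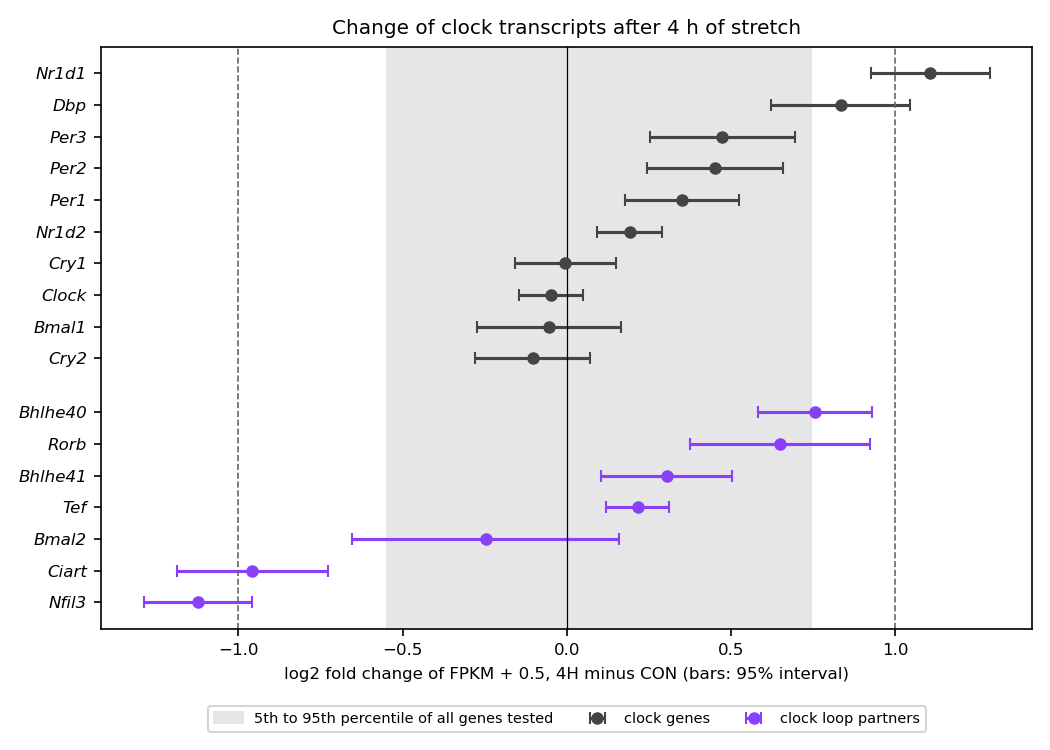
Log2 fold change (4H minus CON, on FPKM + 0.5) of the 10 clock genes and of 7 tested loop partners, with 95% intervals from limma (bars), the study's fold threshold (dashed lines at -1 and 1) and the span from the 5th to the 95th percentile of all genes tested (grey). Nr1d1 (1.11), Dbp (0.83) and Bhlhe40 (0.76) lie above that span and Nfil3 (-1.12) and Ciart (-0.96) below it.

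On GRCm38 the period genes lie at chr11:69095217-69109960 (Per1, plus strand), chr1:91415982-91459324 (Per2, minus) and chr4:151003652-151044665 (Per3, minus). The cryptochrome genes lie at chr10:85131700-85185064 (Cry1, minus) and chr2:92403646-92434043 (Cry2, minus), and the activators at chr5:76209868-76304792 (Clock, minus) and chr7:113207465-113314126 (Bmal1, plus). Nr1d2 lies at chr14:18204054-18239127 on the minus strand, and Dbp at chr7:45705088-45710203 on the plus strand, on the chromosome of Bmal1. Exons on the other strand also cover 4.67% of the exon bases of Cry2 (D930015M05Rik) and 0.439% of those of Bmal1 (Gm45355). The overlaps are those of GENCODE M21, and the table uses newer gene symbols than M21, so the annotation used in its counting may share other bases.

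The order of the members by level changed with stretch. In the CON group the order was Clock, Nr1d2, Bmal1, Nr1d1, Cry1, Per1, Cry2, Dbp, Per2 and Per3, from a mean of 24.8 FPKM down to 1.93 FPKM. Neighbours whose libraries overlapped were Clock and Nr1d2, Per1 and Cry2, and Per2 and Per3. In the 4H group Nr1d2 came first at a mean of 28.2 FPKM, followed by Clock at 23.9 FPKM and Nr1d1 at 21.9 FPKM, the last 2 of which overlapped. Dbp moved above Cry2, at 5.64 and 4.71 FPKM, without overlap. The least abundant members remained Per2 and Per3, whose libraries overlapped in both groups.

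The list of loop partners holds 10 further transcription factors and regulators of the loop, of which 7 were tested. At an adjusted p of at most 0.05, 4 were higher and 2 lower in the 4H group, where 22.6% and 24.1% of all genes tested were, and the median log2 fold change was 0.22. One that rose was Bhlhe40, the gene of DEC1, which competes with CLOCK and BMAL1 for E-boxes. It was at 11.7, 12.9 and 12.0 FPKM without stretch and 23.4, 19.4 and 20.2 FPKM after it, or 0.76 higher in log2 (limma, standard error 0.075, adjusted p = 9.15e-05). Its paralog Bhlhe41 went from 5.44 ± 0.440 to 6.84 ± 0.558 FPKM (log2 difference 0.30, adjusted p = 0.0203), a call lost without CON replicate 1 (0.0654), 4H replicate 1 (0.0664) or 4H replicate 3 (0.0544). Tef, a D-box activator like Dbp, rose from 21.4 ± 0.484 to 25.0 ± 0.703 FPKM (log2 difference 0.22, adjusted p = 0.00334). The other relative, Hlf, was below the filter, at 0.218 FPKM without stretch and 0.360 FPKM after it.

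Nfil3, which encodes the repressor of D-box genes, was the partner called at both thresholds. It was at 23.9, 23.9 and 24.1 FPKM without stretch and 11.3, 11.5 and 9.50 FPKM after it. It fell by 1.12 on the log2 scale (adjusted p = 7.50e-06 from limma), with no overlap between groups. Within a library, the ratio of Dbp to Nfil3 was 0.122, 0.137 and 0.111 in the CON group and 0.485, 0.529 and 0.565 in the 4H group. Dbp RNA was thus 4.27 times higher relative to Nfil3 RNA in the mean of the stretched cells, a log2 difference of 2.10 (standard error 0.11). Tef, the more abundant D-box activator at 21.4 and 25.0 FPKM, rose by only 0.22 in log2.

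Not every E-box gene of the loop rose. Ciart, whose product CHRONO represses CLOCK and BMAL1, was at 9.24, 10.2 and 8.07 FPKM without stretch and 4.65, 4.74 and 4.03 FPKM after it. It fell by 0.96 on the log2 scale (adjusted p = 0.000121 from limma), opposite in sign to Dbp and Nr1d1. The ratio of Dbp to Ciart was 0.322 ± 0.00776 in the CON group and 1.26 ± 0.0784 in the 4H group (SD, n = 3 each). Among the ROR receptors, the activators that oppose REV-ERB, Rorb rose from 0.792 ± 0.0869 to 1.53 ± 0.129 FPKM (log2 difference 0.65, adjusted p = 0.00253). Its level was low and its change moved with the scale, below that of Bhlhe40 in log2(FPKM + 0.5) but above it as a ratio of means (1.93 beside 1.72), and Rora was below the filter at 0.358 and 0.254 FPKM. Bmal2 was at 1.34 ± 0.409 and 1.03 ± 0.172 FPKM (adjusted p = 0.287), and Npas2, the paralog of Clock, was below the filter at 0.219 and 0.0731 FPKM.

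**Figure D3:**
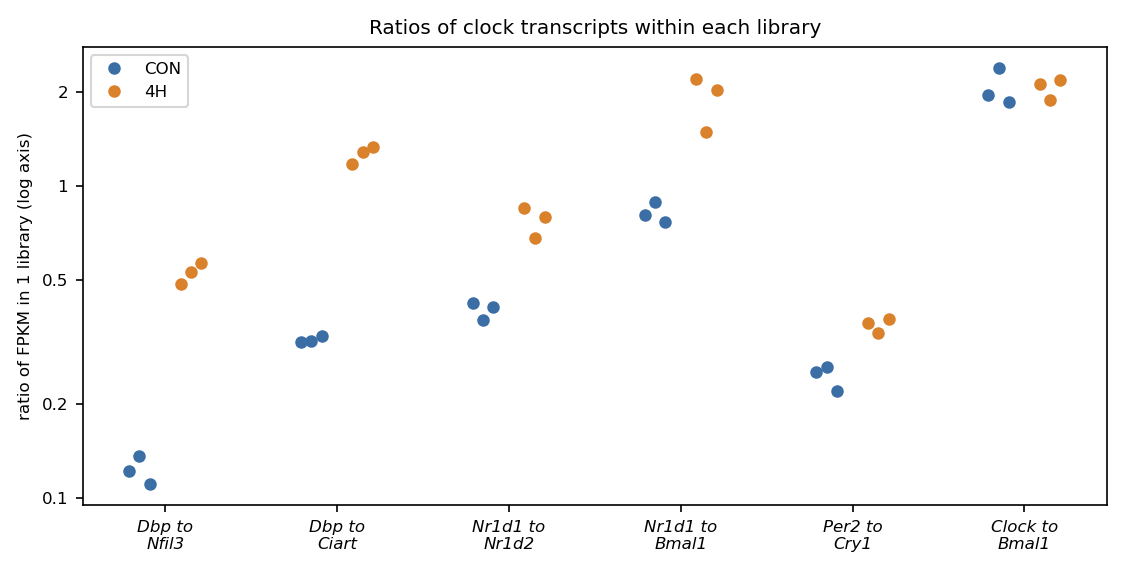
Ratio of the FPKM of 2 clock transcripts within each library (points, log axis) for CON and 4H. The Dbp to Nfil3 ratio goes from a mean of 0.123 to 0.526 and the Dbp to Ciart ratio from 0.322 to 1.26, while the Clock to Bmal1 ratio is at a mean of 2.06 in both groups.

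Promoter sequence was compared with these changes using RefSeq windows of 250 bases before to 50 bases after each start site on GRCm38.p6. A window was found for 9 of the 10 clock genes and 9 of the 10 loop partners. Per2 and Bhlhe40 had no entry. Both strands were searched for the E-box CACGTG, the E′-box CACGTT, the D-box TTANGTAA, the core TGACG of the cAMP response element, and the ROR response element. These motifs do not contain one another. An E-box was found in 2 clock genes, Per1 and Cry1, and in 8.09% of the 27025 genes with a window. An E′-box was found in Cry1, Cry2 and Nr1d1, and in 5.44% of all genes. A D-box was found in Per3 and in 2.72% of all genes. The TGACG core was in Per1, Cry1 and Cry2 and in 23.0% of all genes, and the ROR element was in Bmal1 and in 0.459% of all genes.

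The stretches below hold the E-box type and D-box matches of members that rose (Per3, Per1, Nr1d1), of a member that did not pass the test (Cry1) and of Ciart, a partner that fell. Capitals mark every match to the motifs searched, and each stretch is printed 5′ to 3′ on the strand of its gene.
Per3, D-box, chr4:151044801-151044885, minus strand: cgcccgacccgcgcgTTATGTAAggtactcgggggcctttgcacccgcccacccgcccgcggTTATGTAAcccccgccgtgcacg
Per1, E-box, chr11:69098763-69098808, plus strand: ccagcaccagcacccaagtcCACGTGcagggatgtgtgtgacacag
Nr1d1, E′-box read on the other strand, chr11:98775380-98775425, minus strand: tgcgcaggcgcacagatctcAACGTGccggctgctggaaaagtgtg
Cry1, E′-box read on the other strand and then E-box, chr10:85185089-85185134, minus strand: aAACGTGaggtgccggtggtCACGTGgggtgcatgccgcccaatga
Ciart, E-box, chr3:95882255-95882356, minus strand: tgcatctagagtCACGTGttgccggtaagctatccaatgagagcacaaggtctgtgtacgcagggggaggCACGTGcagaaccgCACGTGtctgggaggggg

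Per3, which rose by 0.47 on the log2 scale, carries 2 D-boxes with the same letters, the first bases of which lie at -205 and -158 from the start site. At least 2 D-boxes in a window were found in 0.0999% of all genes. Ciart, which fell, carries 3 E-boxes at -116, -58 and -44, a number that 25 of 27025 genes reach (0.0925%). Cry1, which did not pass the test, carries 1 E-box at -60 and Per1, which rose, 1 at -166. Of the loop partners, 3 carry an E-box (Ciart, Tef and Bhlhe41), 1 an E′-box and a D-box (Rorb), 2 the TGACG core (Nfil3 and Hlf) and 0 the ROR element. Tef, Bhlhe41 and Rorb were higher after stretch, the call of Bhlhe41 being lost with some libraries left out, as given above. Nr1d2, Dbp and Clock held none of the 5 motifs in their windows. A match is only a run of letters, and a window without one says nothing about elements elsewhere in the gene.

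**Figure D4:**
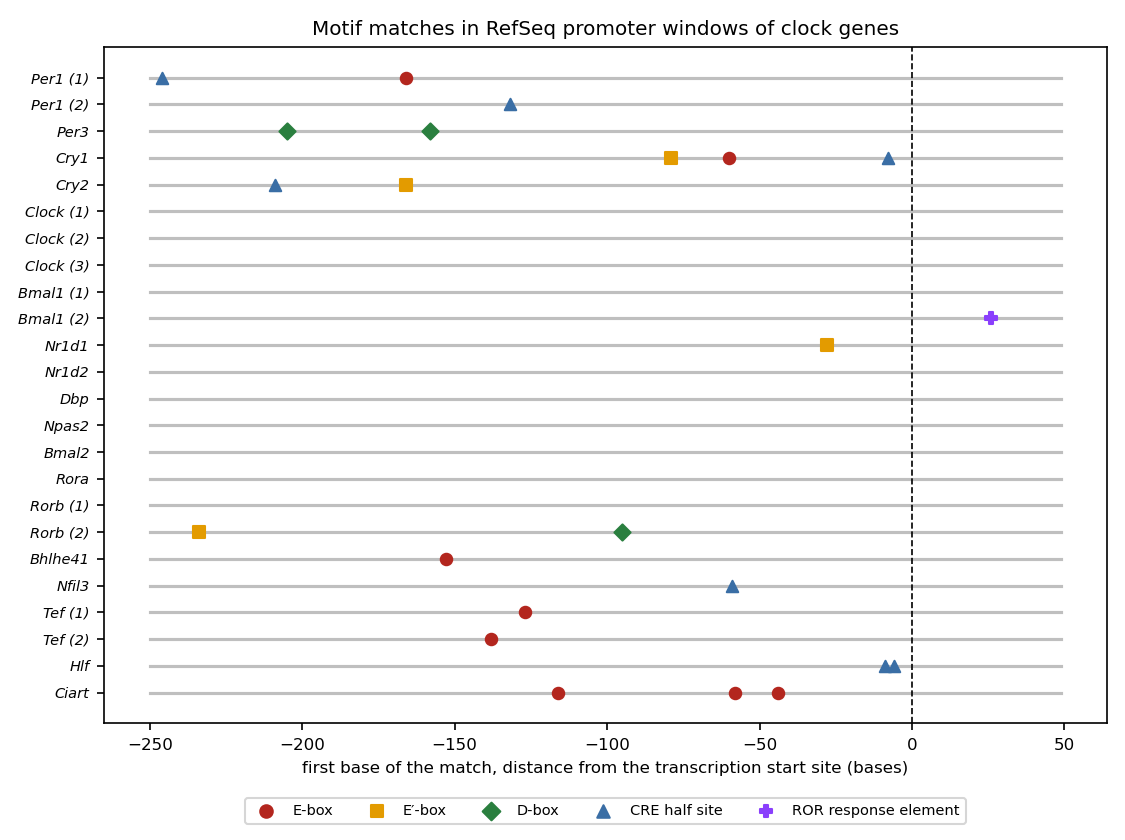
First base of each motif match (symbols) in RefSeq promoter windows (grey lines, 1 per annotated start site) of the clock genes and loop partners, against distance from the start site in bases. Ciart holds 3 E-boxes, the farthest at -116, and Per3 holds 2 D-boxes, while the windows of Clock, Nr1d2 and Dbp are empty.

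Of 13 genes for kinases, ubiquitin ligases and other modifiers of clock proteins, 11 were tested, and 2 were higher and 3 lower after stretch by the adjusted p, a share near the 46.7% of all genes tested. Their median absolute change was 0.12 in log2, beside 0.19 for all genes tested, and their signed median was -0.07. Gsk3b, a kinase gene whose product phosphorylates several clock proteins, fell most, at 26.3, 29.9 and 30.3 FPKM without stretch and 19.9, 17.0 and 21.3 FPKM after it (log2 fold change -0.56, adjusted p = 0.00111 from limma). Prkaa1, a catalytic subunit gene of AMPK, rose from 34.5 ± 0.699 to 40.7 ± 1.19 FPKM (log2 difference 0.24, adjusted p = 0.00123). Among the casein kinase 1 genes, whose products time the decay of PER, Csnk1a1 fell from 118 ± 3.19 to 96.7 ± 3.11 FPKM (log2 difference -0.29, adjusted p = 0.000294). Csnk1d was at 45.3 ± 0.740 and 49.3 ± 0.904 FPKM (log2 difference 0.12, adjusted p = 0.0177), a call lost without CON replicate 3 (0.0604), 4H replicate 1 (0.0509) or 4H replicate 3 (0.0558). Csnk1e was at 32.7 ± 1.24 and 35.1 ± 1.09 FPKM (log2 difference 0.10, limma, adjusted p = 0.0901, and 0.0357 after rescaling to TPM or 0.0368 with quantile normalization).

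The list of 12 cofactors of the loop was tested in full, and 7 were lower and 0 higher at an adjusted p of at most 0.05 (median log2 fold change -0.14), beside 24.1% lower and 22.6% higher among all genes tested. Timeless, which encodes a replication fork protein that also binds clock proteins, fell most, from 14.9 ± 0.227 to 11.1 ± 0.386 FPKM (log2 difference -0.41, adjusted p = 0.000258 from limma). The acetyltransferase gene Ep300 was at 16.6 ± 0.321 and 16.9 ± 0.821 FPKM (log2 difference 0.02, 95% interval up to 0.14, adjusted p = 0.714).

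Of 8 genes known as clock-controlled outputs, 6 were tested, and 4 were higher and 1 lower, beside 22.6% higher and 24.1% lower among all genes tested. The median log2 fold change of these outputs was 0.66. Pdk4, a kinase gene that restrains pyruvate oxidation, was at 1.35, 1.53 and 1.67 FPKM without stretch and 6.98, 6.31 and 6.67 FPKM after it. Its log2 fold change was 1.83 (adjusted p = 2.11e-06 from limma). Myod1, the master factor of the myogenic lineage, was at 5.37, 4.48 and 5.55 FPKM without stretch and 18.5, 17.4 and 18.8 FPKM after it, a log2 fold change of 1.74 (adjusted p = 1.56e-06). Both had larger log2 fold changes than any of the 10 clock genes. Cdkn1a and Por rose by 0.67 and 0.65. Nampt, the rate-limiting enzyme of NAD salvage, fell from 34.4 ± 1.45 to 23.8 ± 1.87 FPKM (log2 difference -0.52, adjusted p = 0.000223), while Wee1, a cell cycle kinase gene with E-boxes, was at 12.2 ± 0.707 and 13.6 ± 0.0800 FPKM (adjusted p = 0.0603, and 0.0292 after rescaling to TPM).

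The list of CREB and glucocorticoid inputs, the signals that reset Per1, gave 2 higher, 3 lower and 5 genes not past the adjusted p (median log2 fold change -0.14). The 5 of 10 that passed were a share near the 46.7% of all genes tested, and they became 3 after rescaling to TPM and without CON replicate 1 or 2. Sik1, a CREB-induced kinase gene that limits the resetting of Per1, was at 2.40, 1.85 and 2.84 FPKM without stretch and 5.76, 4.46 and 4.51 FPKM after it (log2 fold change 0.92, adjusted p = 0.00129 from limma). Crem, another CREB target, went from 4.60 ± 0.330 to 7.05 ± 1.61 FPKM (log2 difference 0.55, adjusted p = 0.0179), with its 4H libraries spread from 5.29 to 8.45 FPKM. Without CON replicate 2 or 4H replicate 2 its adjusted p was 0.0583 or 0.0562. The 3 lower genes were the glucocorticoid targets Fkbp5, Tsc22d3 and Klf9. The calls of Fkbp5 (log2 difference -0.16, adjusted p = 0.0473 from limma) and Tsc22d3 (-0.21, adjusted p = 0.0238) were fragile. That of Fkbp5 was lost in 8 of 18 alternatives, among them without CON replicate 1 (0.103) or 2 (0.137) and without 4H replicate 1 (0.0960) or 3 (0.137), and that of Tsc22d3 in 3, without CON replicate 1 (0.0646) or 3 (0.0668) and after rescaling to TPM (0.0526). Klf9 was at 16.3, 16.3 and 16.0 FPKM without stretch and 10.1, 10.1 and 10.6 FPKM after it, a log2 fold change of -0.64 (adjusted p = 1.87e-05). The rise of Per1 thus went with higher Sik1 and lower Klf9, and the part of either signal in it was not tested.

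**Figure D5:**
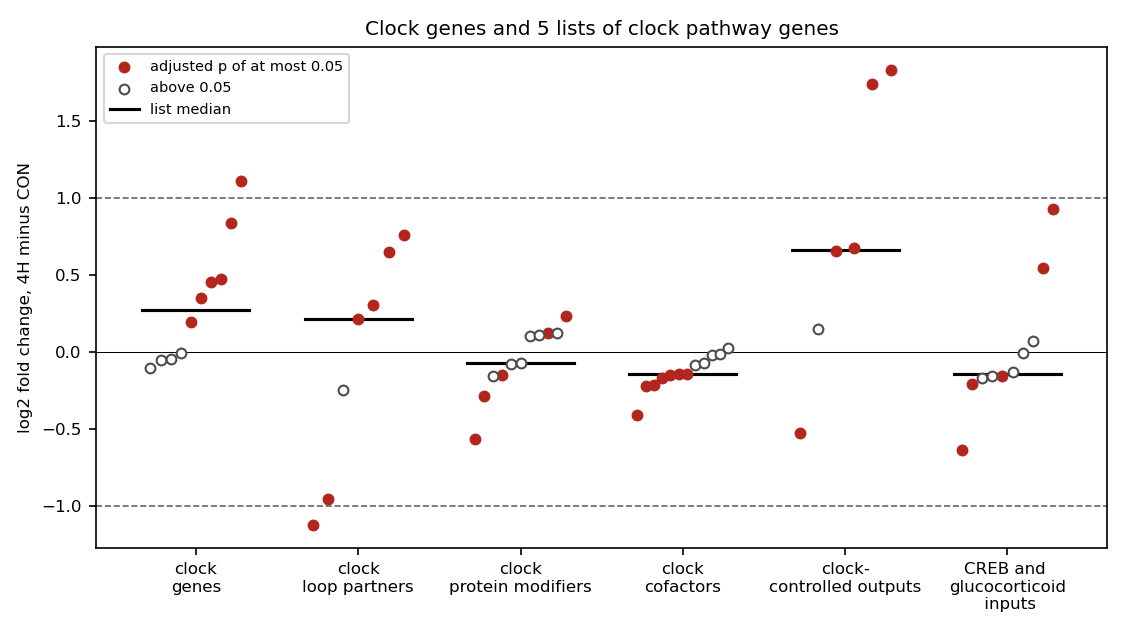
Log2 fold change (4H minus CON) of every tested gene (points) of the clock genes and of 5 lists of clock pathway genes, filled where the adjusted p of limma was at most 0.05, with list medians (bars) and the fold threshold (dashed lines). The list medians run from -0.14 for the cofactors and inputs to 0.66 for the outputs, and the clock genes have a median of 0.27.

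Over the 5 lists, 46 of 53 genes were tested, 12 were higher and 16 lower at an adjusted p of at most 0.05, and 3 met both thresholds (Nfil3, Pdk4 and Myod1), where 46.7% of all genes tested passed the adjusted p and 3.88% met both. The genes whose libraries lay nearest to those of Nr1d1, by Euclidean distance of log2 values from the CON mean over the 6 libraries, were Scg2 (0.11), Fblim1 (0.15) and Ereg (0.16). Fblim1, which encodes a filamin-binding adaptor of cell junctions, was at 13.4 ± 0.398 and 30.4 ± 2.06 FPKM, and Ereg, the gene of the growth factor epiregulin, at 25.0 ± 1.77 and 54.7 ± 2.66 FPKM. The likeness of Scg2 rested on the pseudocount, since it was at only 0.141 ± 0.0279 and 0.901 ± 0.114 FPKM.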

How the data were processed

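RNA-seq libraries of C2C12 cells, 3 of the CON group and 3 of the 4H group, were grouped by their labels. Per the labels, libraries were strand-specific, paired-end and made after poly(A) selection. The authors deposited 1 table of FPKM values, normalized by transcript length and mapped fragments, with 1 column per library and replicates kept apart. The submitters' processing notes name the build mm10. For the aligner, the counter and its use of strand, and the annotation: not given in the sources used here. Positions are those of GENCODE M21 and RefSeq on GRCm38, and genes were matched by symbol or, for Bmal1 and Bmal2, by Ensembl identifier.

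FPKM is not a count, so no count model was used. limma 3.58.1 in R 4.3.3 (lmFit, eBayes with a trend, two-sided) took log2(FPKM + 0.5) of the 11593 genes that averaged 0.5 FPKM or more, with Benjamini-Hochberg adjustment. No replicate block was used. Single values were also compared by a two-sided exact permutation test, which cannot give a p below 0.1 for 3 libraries against 3. The fit was tested on simulated data. Other steps used SciPy 1.17.1, numpy 2.4.6, pandas 2.3.3 and matplotlib 3.10.9 under Python 3.11.15. The labels do not say whether libraries came from separate cultures, so p-values measure only the spread between these libraries. FPKM holds no counts, so no counting interval is given.

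The members and the lists were chosen with earlier results of these data known, and 1 listed gene is not reported here and was left out of the counts. The named genes are the 10 clock genes, the members of 5 pathway lists called at both thresholds or with the largest rise or fall in their list, the 3 genes nearest to the clock gene with the largest change, and genes whose exons overlap a member. Cd68, Myf5, Ciart, Tef, Hlf, Bhlhe41, Rora, Rorb, Bmal2, Npas2, Por, Cdkn1a, Wee1, Crem, Fkbp5, Tsc22d3, Csnk1d, Csnk1e and Csnk1a1 are not covered by it and were picked once their values were known. The alternatives were each library left out in turn, a replicate block, quantile normalization, rescaling to TPM, scaling by the median of ratios, array weights, no trend, a pseudocount of 0.1 or 1, a filter at 1 or 5 FPKM or none, and a fold threshold set on group means of FPKM.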

Additional observations from a re-analysis of the deposited data

How the results depend on the processing

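All 6 clock genes past an adjusted p of 0.05 stayed past it under every alternative in which they were tested, and Nr1d1 stayed the 1 differentially expressed member in all of them, with a log2 fold change of 1.03 to 1.19. When genes under a mean of 5 FPKM were dropped, 3 members were past it, since Per2, Per3 and Dbp were no longer tested. Of the pathway genes, 3 met both thresholds, against 5 with a pseudocount of 0.1 and 5 by the ratio of mean FPKM, where Ciart and Sik1 joined, 4 after rescaling to TPM and 2 with genes under 5 FPKM dropped. Leaving out 1 library gave 3 to 5, the highest without CON replicate 3, where Ciart (-1.04) and Sik1 (1.04) joined. Over all genes tested, 450 met both thresholds, against 703 after rescaling to TPM and 245 with the filter at 5 FPKM. Among the genes whose changes were followed over the alternatives, which are not all of those listed, signs turned only in genes that passed in no setting. The log2 difference of Cry1 was 0.031 after rescaling to TPM and 0.0027 with quantile normalization, and ran from -0.054 to 0.043 (0.013 without 4H replicate 3, the highest without CON replicate 3) with 1 library left out. That of Bmal1 was 0.0074 without CON replicate 3, and that of Ep300 ran from -0.0083 without 4H replicate 3 to 0.060 without 4H replicate 2. The causes of these turns were not tested.

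The replicate numbers of the labels did not pair the libraries. The deviations of same-numbered libraries from their group means correlated at 0.025, -0.093 and -0.13, and no library correlated best with its own number. The column titles number the 4H libraries otherwise, as 4H1, 4H3 and 4H4 beside C1, C2 and C3. By title, 4H replicate 2 shares its number with CON replicate 3, and that pair correlated highest, at 0.18. A block by title number was not fitted. With a block by the label numbers, 6 clock genes and 28 pathway genes were past the adjusted p. As without it, 1 and 3 met both thresholds, and 4964 of all genes were past the adjusted p in place of 5409. With FPKM alone, depth limits the low members in an unknown way.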
